A study of Homo sapiens with 6 samples.

Results

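The expression of 50 genes of cardiac and contractile identity was examined in human immortalized ventricular cardiomyocytes after knockdown of CIRBP, the cold-inducible RNA-binding protein. The 50 genes were taken by name from the 58884 genes listed for each library, and all were kept whatever their counts, so that cardiac genes without reads are reported as well. They comprise 7 thick filament genes, 6 troponin and cardiac actin genes, 4 tropomyosins, 6 genes of the Z-disc and its scaffold, 2 natriuretic peptides, 11 transcription factors, 10 smooth muscle and nonmuscle contractile genes and 4 genes of calcium handling. Of these, 25 had 10 or more counts in at least 3 of the 6 libraries and were tested.

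RNA was sequenced from 3 libraries of cells given a negative control siRNA (NC) and 3 libraries of cells given an siRNA against CIRBP (SiCIRBP), with no drug named in the labels for either group. The labels and the stated culture conditions name the cells T0519, whereas the paper's account of the sequencing names AC16, the other human immortalized ventricular cardiomyocyte line it used. Both are dividing cell lines kept in culture, so all 6 libraries share an immortalized background, and the labels do not say whether the libraries of a group came from separate cultures. P-values therefore measure the spread between these libraries, which may be technical.

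Striated heart muscle contracts through sarcomeres, in which myosin thick filaments pull on actin thin filaments, and troponin and tropomyosin make this step depend on calcium. Smooth muscle and nonmuscle cells build contractile bundles from related actins, myosins, light chains and tropomyosins. Many of these genes are targets of SRF, a transcription factor that binds the CArG box, and the factors GATA4, NKX2-5, MEF2, TBX5 and HAND2 specify the cardiac lineage.

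The 6 libraries held between 25726259 and 29919566 estimated counts. At this depth, 3 counts correspond to between 0.0984 and 0.117 normalised counts in CPM, in which each library's counts are scaled to a common total, a floor that covers counting error alone. CIRBP itself measured 86.4, 85.8 and 91.0 CPM in NC_1, NC_2 and NC_3 and 54.8, 24.3 and 46.3 CPM in SiCIRBP_1, SiCIRBP_2 and SiCIRBP_3, so every SiCIRBP library lay below every NC library. The knockdown was thus partial in RNA, with a log2 fold change of -0.81 ± 0.11 (SE, adjusted p = 0.008) over the 4 libraries described next.

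SiCIRBP_2 stood apart from the other 5 libraries. It was the highest or the lowest of the 6 for 18 of the 25 tested genes, and for 63.2% of all 15296 tested genes. Its 10 interferon-stimulated genes summed to 7988 TPM, a unit that also takes transcript length into account, against 709 to 754 TPM in the NC libraries, 313 TPM in SiCIRBP_1 and 1530 TPM in SiCIRBP_3. The paper left out NC_1 and SiCIRBP_2 because they showed the largest discrepancies in these same RNA-seq data. By comparison, NC_1 was the highest or the lowest of the 6 for 15.8% of all tested genes. The tests given first use the remaining 4 libraries, NC_2 and NC_3 against SiCIRBP_1 and SiCIRBP_3. Because these were kept on the values under test, their spread can be too small, and so can the adjusted p-values. Values are given for all 6 libraries, and the fits with all 6 stand beside the first ones. Levels also moved with gene length. Tested genes with a length in every library (11813) were put into 4 equal bins by assigned transcript length. In the longest bin the median log2 level against the NC mean was -0.14, -0.32 and -0.12 in SiCIRBP_1, SiCIRBP_2 and SiCIRBP_3, whereas in the shortest bin it was 0.13, 0.30 and 0.08. The part of these differences in the results was not tested.

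The cells expressed few genes that are restricted to heart muscle. All 7 thick filament genes had 3 counts at most in any library, and MYH6, MYL2, MYL3 and MYBPC3, which encode the alpha heavy chain, both ventricular light chains and cardiac myosin-binding protein C, had 0 counts in all 6. MYH7, the beta heavy chain, had 1 count in SiCIRBP_2, 3 counts in SiCIRBP_3 and 0 elsewhere. MYL7, the atrial regulatory light chain, had 1 count in NC_1 and 1 in SiCIRBP_2, and MYL4, the atrial essential light chain, had 1 count in each SiCIRBP library and 0 in each NC library. TNNT2, cardiac troponin T, had a single count, in SiCIRBP_2. RYR2, the calcium release channel, PLN, the inhibitor of the calcium pump, and CASQ2, the calcium store protein, were at 0 counts in every library, as was CSRP3, a Z-disc protein. A count of 0 leaves room for a level up to the floor given above, and differences between the groups were not detectable for these genes at this depth. MYH6 shares 22.4% of the 31-base words of its transcripts with MYH7, so reads of either gene are uncertain.

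Altogether, 17 untested genes had any reads, with no more than 19 counts in a library. ACTC1, cardiac alpha actin, had 0, 4 and 2 counts in the NC libraries and 0, 15 and 2 in the SiCIRBP libraries. NPPA, which encodes atrial natriuretic peptide, had 1, 2 and 2 counts in the NC libraries and 7.99, 4 and 9 in the SiCIRBP libraries, and shares 19.8% of its 31-base words with CLCN6 on the opposite strand. NPPB, which encodes brain natriuretic peptide, had 2 counts at most. MYOCD, a coactivator of SRF in heart and smooth muscle, had 10, 7.05 and 9 counts in the NC libraries and 3.71, 3 and 4 in the SiCIRBP libraries. Neither NPPA nor MYOCD overlapped between the groups, but both had 10 counts at most and were not tested. MEF2C had between 2 and 19 counts, the highest in SiCIRBP_3, and TBX5, TBX20, TTN, DES, LDB3, TNNC1 and TNNI1 had 6 counts at most. LMOD1, a smooth muscle actin nucleator, ranged from 3 to 14 counts in the NC libraries and from 5 to 11.1 in the SiCIRBP libraries. Checked against the defining markers of the cell label, several lineage transcription factors were expressed and so was ACTN2 of the Z-disc, at 392 to 639 counts, whereas the thick filament genes, TNNT2, RYR2, PLN and CASQ2 were at 0 or near it.

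Per transcript length, the highest member was MYL6, the essential light chain of smooth muscle and nonmuscle myosin, at 2457 to 3970 TPM. It was followed by TPM1 at 633 to 1358 TPM and TPM2 at 790 to 1421 TPM, whose ranges overlapped. Among the factors of the cardiac lineage, MEF2A was expressed at 32.8 to 65.2 TPM, GATA4 at 22.6 to 63.0 TPM, GATA6 at 27.6 to 46.1 TPM, MEF2D at 9.58 to 22.9 TPM, HAND2 at 5.68 to 19.6 TPM and NKX2-5 at 3.39 to 9.69 TPM. Among the other markers, 14 fibroblast genes summed to between 4173 and 5992 TPM and 6 epithelial genes to between 966 and 1622 TPM, the latter almost all KRT18, whereas 6 endothelial genes summed to no more than 16.1 TPM. The fibroblast list includes VIM and FN1, which cultured cells of many kinds express.

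**Figure D1:**
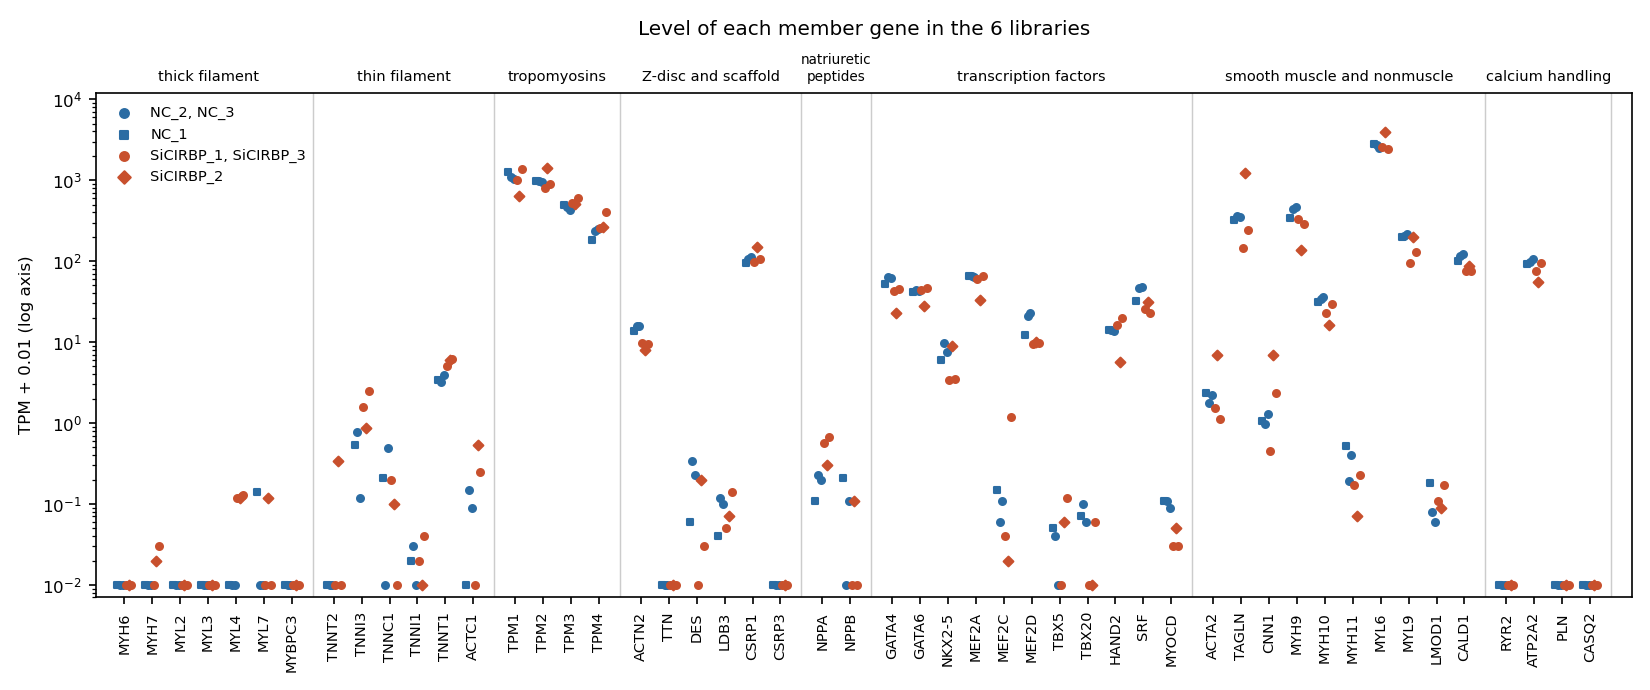
TPM (plus 0.01, log axis) of each of the 50 genes in the 6 libraries, grouped by role, with NC libraries in blue, SiCIRBP libraries in red, a square for NC_1 and a diamond for SiCIRBP_2. Thick filament genes lie at the bottom of the axis, whereas tropomyosins and MYL6 lie near the top.

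Over the 4 libraries, 10 of the 25 tested genes were called at an adjusted p under 0.05, a share of 40.0%, beside 19.3% of all tested genes. Of the 10, 2 were higher and 8 were lower in SiCIRBP, against a background of 9.49% called higher and 9.82% called lower. The higher genes were TPM3 and HAND2, and the lower genes were NKX2-5, MEF2D, SRF, MYL9, TAGLN, MYH9, CALD1 and GATA4. Only NKX2-5 changed by at least 2-fold as well, where the background is 3.47%. The median log2 fold change of the 25 genes was -0.07, and that of all tested genes was 0.00. In the fit with all 6 libraries, edgeR called 0 of 15296 genes, members included, while 10 members and 23.6% of all genes had an unadjusted p under 0.05. With the same 6 libraries DESeq2 called 3 members, TNNT1 and TPM4 as higher and MEF2D as lower, beside 10.1% of all genes (4.9% higher and 5.16% lower). With SiCIRBP_2 alone left out, edgeR called 5 members, all lower (NKX2-5, MEF2D, SRF, MYL9 and CALD1), beside 7.25% of all genes (3.6% higher and 3.65% lower). Over the 4 libraries, DESeq2 called 3 members higher, TPM4 being added, and 8 lower, beside 20.3% of all genes (9.75% higher and 10.5% lower), and limma on log2(TPM + 1) called 0 higher and 8 lower, with ACTN2 in and TAGLN out, beside 8.28% (2.97% higher and 5.31% lower). DESeq2 gave no adjusted p for TNNI3 and MYH11.

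Across all 6 libraries, the NC and SiCIRBP values did not overlap for 9 of the 25 genes, or 36.0%, beside 32.8% of all tested genes. The SiCIRBP libraries were all higher for TNNI3, TNNT1, TPM3 and TPM4 (4 genes, beside 16.1% of all tested genes) and all lower for GATA4, MEF2D, MYH9, MYH10 and CALD1 (5 genes, beside 16.6%). TNNI3 passed the count filter through the SiCIRBP libraries alone and therefore had to be higher there. It is counted in the 9 and the 4, but its separation is no evidence of a difference. An exact two-sided permutation test of 3 against 3 libraries cannot give a p below 0.1. Groups without overlap always give that value, so the test adds nothing for these 9 genes.

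**Figure D2:**
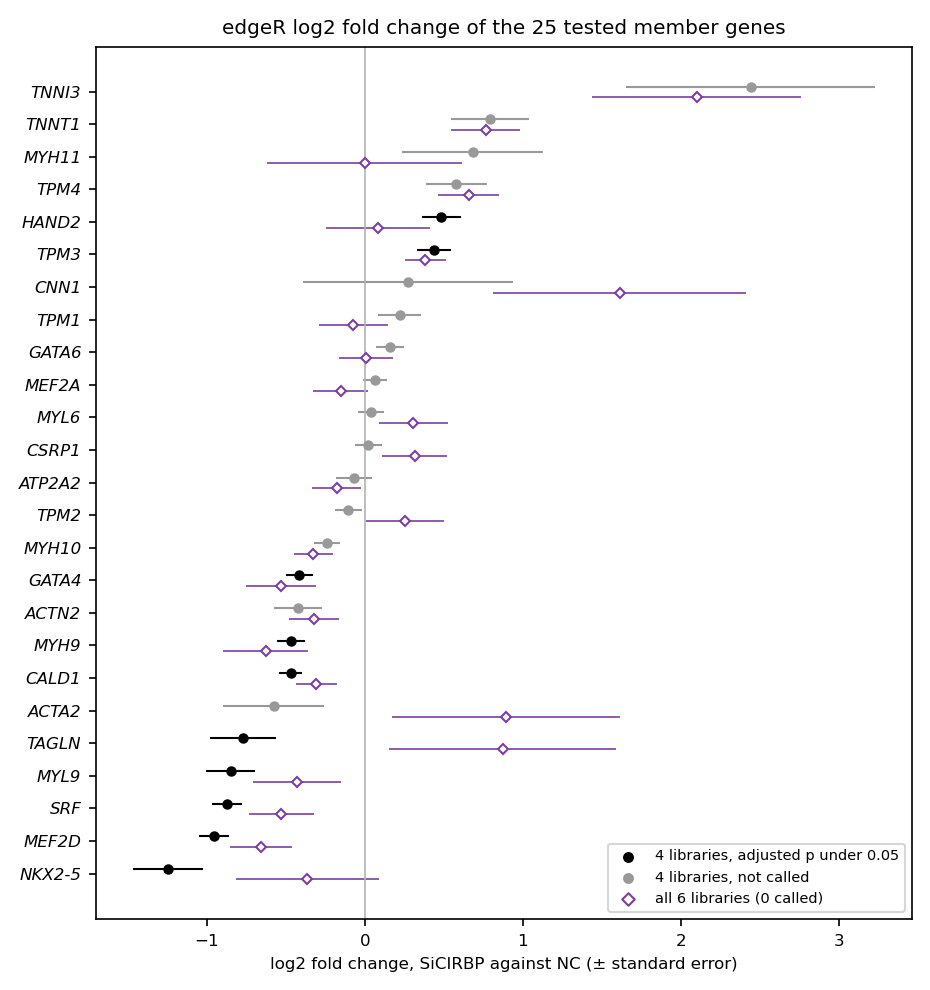
Log2 fold change of SiCIRBP against NC for the 25 tested genes with its standard error, from edgeR on 4 libraries (filled circles, black where the adjusted p was under 0.05, grey otherwise) and on all 6 (open diamonds). TAGLN, ACTA2, TPM1, TPM2, MEF2A and, only just, MYH11 lie on opposite sides of 0 in the 2 fits. By contrast, MEF2D, SRF, MYL9, MYH9, CALD1 and GATA4 lie below 0 in both.

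Among the 7 tested transcription factors, 4 fell, 1 rose and 2 were not called over the 4 libraries, beside 9.82% of all tested genes called lower and 9.49% called higher. SRF, which drives the genes of the actin cytoskeleton and of smooth and heart muscle, lies on chromosome 6 (43171299 to 43181507, GRCh38, plus strand). Its level was 93.1, 136 and 140.03 CPM in the NC libraries and 80.5, 105 and 70.4 CPM in the SiCIRBP libraries. NC_2 and NC_3 were high, SiCIRBP_1 and SiCIRBP_3 were low, and SiCIRBP_2 lay above NC_1, so the groups overlapped. The log2 fold change was -0.87 ± 0.10 (SE, adjusted p = 0.0057) over the 4 libraries and -0.53 ± 0.20 (adjusted p = 0.17) over 6.

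A CArG box, the 10-base SRF site of 2 C, 6 A or T and 2 G, was looked for on both strands in RefSeq promoter windows (GRCh38.p14) of 300 bases, 250 before a gene's start and 50 after it. RefSeq starts can differ from the gene bounds given here, which are those of GENCODE 29. Windows were found for 36 of the 50 genes, and 5 of these 36 genes held a box (13.89%), beside 1.6% of all genes with a window. These were SRF, TPM4, ACTC1, MYL7 and LDB3. No box was found in the windows of the other searched members that were called, namely MEF2D, MYH9, CALD1, TPM3 and HAND2. The other 14 genes were not searched, namely TAGLN, MYL9, NKX2-5 and GATA4, which were called lower, and TNNC1, NPPB, MYOCD, DES, MYH11, CSRP3, MYL2, MYH7, MYL4 and TNNI1. The 250 bases before the start are shown for 4 of them, in lower case with the boxes in capitals, to set a box before expressed members (SRF and TPM4) beside one before members with few or no reads (ACTC1 and MYL7). The boxes of SRF begin 30 and 10 bases before its start, those of TPM4, ACTC1 and MYL7 begin 173, 109 and 61 bases before theirs. The stretches run over chr6:43171019-43171268 (plus strand) for SRF, chr19:16067288-16067537 (plus strand) for TPM4, chr15:34795550-34795799 (minus strand) for ACTC1 and chr7:44141333-44141582 (minus strand) for MYL7.
SRF: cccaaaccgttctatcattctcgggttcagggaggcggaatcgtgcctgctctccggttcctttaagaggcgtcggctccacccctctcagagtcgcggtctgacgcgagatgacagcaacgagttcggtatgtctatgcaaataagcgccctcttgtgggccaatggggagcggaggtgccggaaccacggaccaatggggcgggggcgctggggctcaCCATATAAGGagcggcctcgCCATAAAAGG
TPM4: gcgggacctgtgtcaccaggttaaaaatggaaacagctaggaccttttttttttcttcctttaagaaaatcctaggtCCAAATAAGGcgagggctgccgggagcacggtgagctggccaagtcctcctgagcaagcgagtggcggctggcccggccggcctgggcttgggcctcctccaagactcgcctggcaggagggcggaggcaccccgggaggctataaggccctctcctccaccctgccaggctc
ACTC1: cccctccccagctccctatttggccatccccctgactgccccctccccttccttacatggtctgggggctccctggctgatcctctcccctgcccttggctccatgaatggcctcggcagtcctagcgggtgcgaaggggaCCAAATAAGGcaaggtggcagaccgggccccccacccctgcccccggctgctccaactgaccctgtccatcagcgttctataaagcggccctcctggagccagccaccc
MYL7: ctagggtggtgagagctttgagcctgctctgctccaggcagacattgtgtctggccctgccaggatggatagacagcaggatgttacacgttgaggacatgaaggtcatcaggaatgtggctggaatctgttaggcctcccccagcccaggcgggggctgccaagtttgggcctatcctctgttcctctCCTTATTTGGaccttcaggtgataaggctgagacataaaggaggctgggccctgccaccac
Of these 4 genes, SRF fell over the 4 libraries, TPM4 did not overlap between the groups and was higher in SiCIRBP, and ACTC1 and MYL7 were too low to test.

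MEF2D, a MADS-box factor of the MEF2 family on chromosome 1 (156463727 to 156500828, minus strand), measured 37.7, 55.4 and 59.7 CPM in the NC libraries and 29.7, 37.5 and 29.7 CPM in the SiCIRBP libraries. NC_1 was the lowest NC library and lay just above SiCIRBP_2, and the groups did not overlap. Its log2 fold change was -0.96 ± 0.10 (adjusted p = 0.005) over 4 libraries and -0.66 ± 0.20 (adjusted p = 0.12) over 6, and DESeq2 called it over 6 (adjusted p = 0.036). MEF2A, its relative, ranged from 181 to 198 CPM in the NC libraries and from 125 to 193 CPM in the SiCIRBP libraries and was not called. SRF, MEF2D and MEF2A all belong to the bin of longest transcripts described above.

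NKX2-5, a homeobox factor of early heart development on chromosome 5 (173232109 to 173235357, minus strand), measured 5.50, 8.35 and 6.17 CPM in the NC libraries and 3.08, 9.48 and 3.03 CPM in the SiCIRBP libraries. SiCIRBP_1 and SiCIRBP_3 were the lowest libraries, and SiCIRBP_2 was the highest. Its log2 fold change was -1.24 ± 0.22 (adjusted p = 0.016) over 4 libraries and -0.36 ± 0.45 (adjusted p = 0.64) over 6.

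GATA4, a zinc-finger factor of the heart and endoderm, measured 87.3, 111 and 108 CPM in the NC libraries and 79.7, 47.4 and 84.6 CPM in the SiCIRBP libraries. All SiCIRBP libraries were below all NC libraries, NC_1 by the smallest margin. The fitted log2 change was -0.41 ± 0.08 (adjusted p = 0.021) over 4 libraries and -0.53 ± 0.22 (adjusted p = 0.20) over 6. GATA6, a related factor, ranged from 91.8 to 98.5 CPM in the NC libraries and from 70.9 to 111 CPM in the SiCIRBP libraries and was not called.

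HAND2, a basic helix-loop-helix factor of the right ventricle on chromosome 4 (173524969 to 173530229, minus strand), measured 18.4, 16.3 and 15.55 CPM in the NC libraries. It measured 20.9, 8.64 and 23.7 CPM in the SiCIRBP libraries, of which SiCIRBP_2 was the lowest of all 6. The fold change on the log2 scale was 0.48 ± 0.12 (adjusted p = 0.040) over 4 libraries and 0.08 ± 0.33 (adjusted p = 0.89) over 6. HAND2 shares 22.2% of its 31-base words with the antisense gene HAND2-AS1, whose level was 4.37 and 5.95 CPM in SiCIRBP_1 and SiCIRBP_3 and 4.78 to 6.46 CPM in the NC libraries. Whether counting used strand is not stated in the sources used here.

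**Figure D3:**
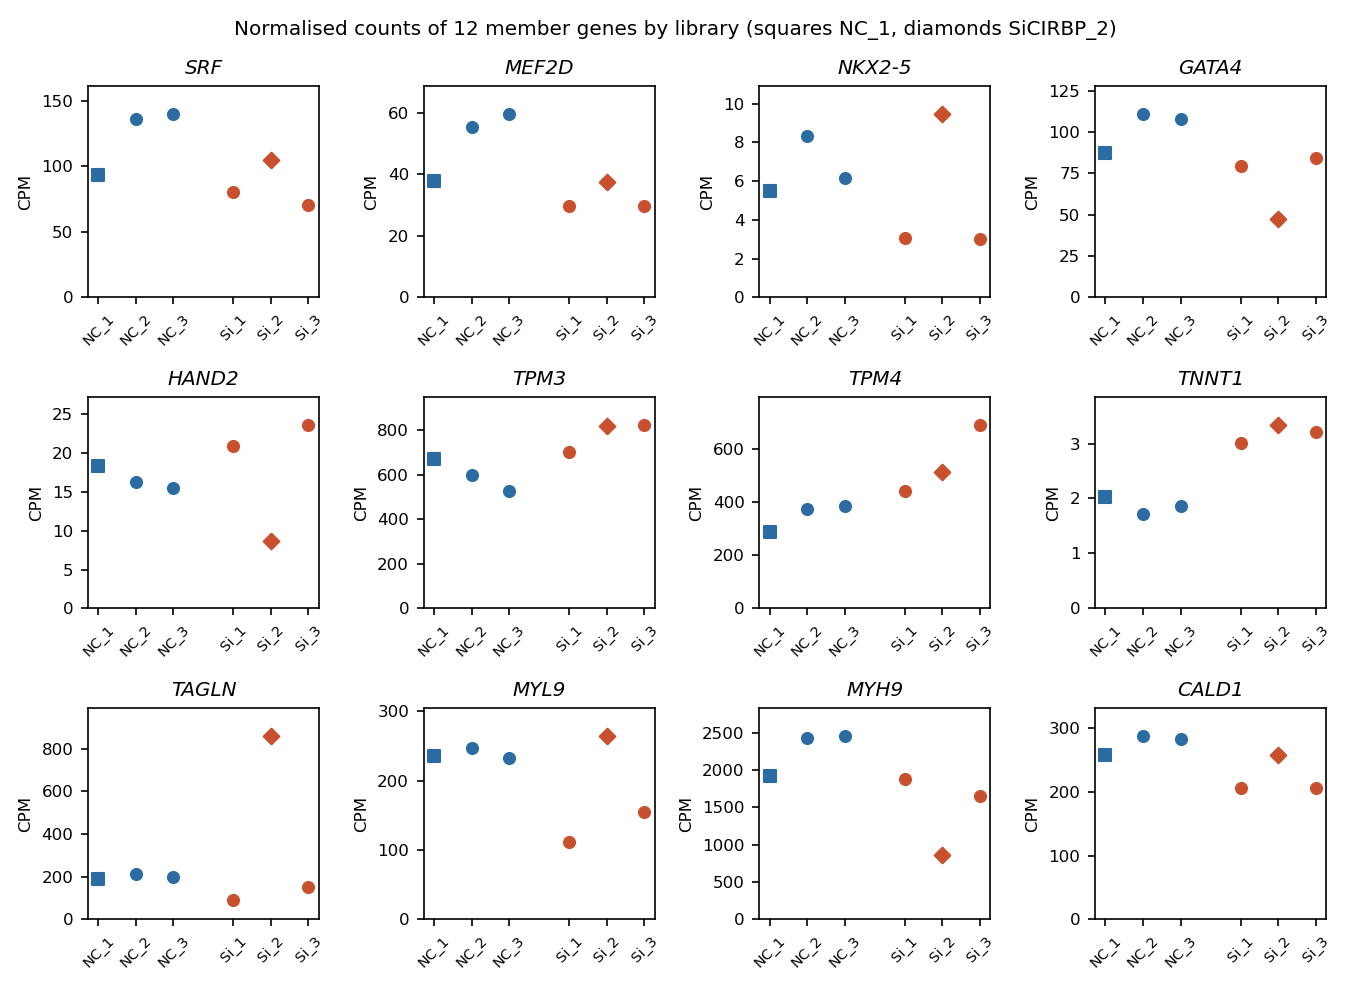
Normalised counts (CPM) of 12 of the tested genes in each library, NC in blue and SiCIRBP in red, with a square for NC_1 and a diamond for SiCIRBP_2. The diamond lies far above the rest for TAGLN and far below for MYH9 and HAND2, and the square lies nearer the SiCIRBP libraries than the blue circles do for SRF, MEF2D, GATA4 and MYH9.

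Tropomyosins wind along actin filaments and set which myosins and binding proteins reach them. All 4 genes were expressed. TPM3, on chromosome 1 (154155304 to 154194648, minus strand), which encodes slow muscle and nonmuscle forms, measured 671, 599 and 528 CPM in the NC libraries and 703, 817 and 823 CPM in the SiCIRBP libraries. Every SiCIRBP library lay above every NC library. TPM3 rose over 4 libraries with a log2 fold change of 0.44 ± 0.11 (adjusted p = 0.036), and the value over 6 was 0.38 ± 0.13 (adjusted p = 0.15).

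TPM4, a mainly nonmuscle tropomyosin on chromosome 19 (16067021 to 16103005, plus strand), measured 286, 372 and 385 CPM in the NC libraries and 439.9, 513 and 692 CPM in the SiCIRBP libraries. The groups did not overlap, and SiCIRBP_3 was the highest. Its log2 fold change of 0.58 ± 0.19 over 4 libraries was not called by edgeR (adjusted p = 0.078), nor was that of 0.66 ± 0.19 over 6 (adjusted p = 0.12), whereas DESeq2 called it over 4 (adjusted p = 0.0077) and over 6 (adjusted p = 0.028). Leaving out 1 of the 4 libraries moved the value to 0.21 without SiCIRBP_3 and to 0.86 without SiCIRBP_1. TPM4 shares 10.2% of its 31-base words with AC098614.1 on the same strand.

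TPM1 ranged from 1001 to 1248 CPM in the NC libraries and was 1056, 738 and 1392 CPM in the SiCIRBP libraries, and TPM2 ranged from 549 to 591 CPM and was 494, 998 and 555 CPM. Neither was called. As a share of the summed tropomyosin TPM, TPM3 made up 16.8%, 16.8% and 16.0% in the NC libraries and 20.04%, 18.1% and 18.3% in the SiCIRBP libraries. The share of TPM4 was 6.16%, 8.45% and 9.29% in the NC libraries and 10.0%, 9.39% and 12.3% in the SiCIRBP libraries. Neither share overlapped between the groups, but the shares of a family depend on each other. How often shares in other families separate was not computed, and for levels 32.8% of all tested genes did not overlap. In SiCIRBP_2 the share of TPM1 was 22.4%, against 39.1% to 43.3% in the other 5 libraries, and that of TPM2 was 50.2%, against 27.5% to 35.6%.

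**Figure D4:**
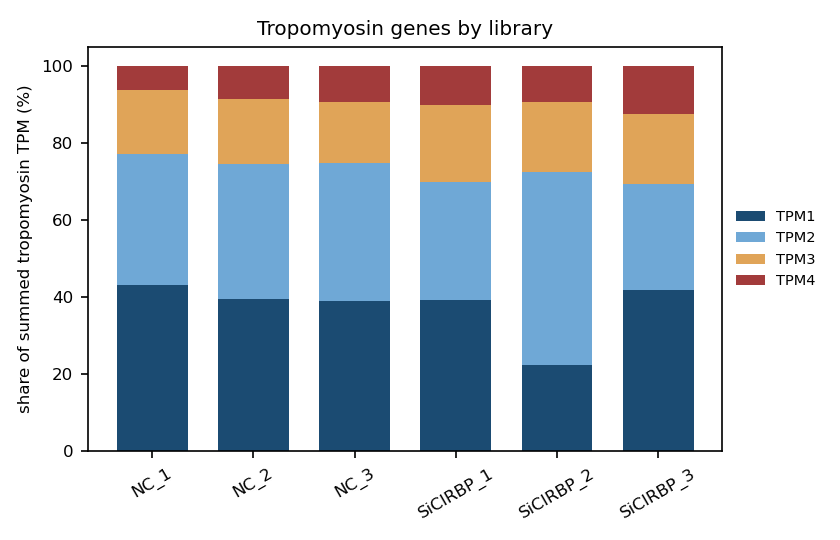
Share of the summed tropomyosin TPM taken by each of the 4 genes in each library, in percent, stacked to 100. TPM3 and TPM4 take a larger share in each SiCIRBP library than in any NC library, and TPM2 takes the largest share of SiCIRBP_2.

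TNNT1 and TNNI3 were the tested thin filament genes, and neither was called over 4 libraries. TNNT1, slow skeletal troponin T, on chromosome 19 (55132794 to 55149354, minus strand), was low but even, at 2.03, 1.71 and 1.87 CPM in the NC libraries and 3.01, 3.34 and 3.21 CPM in the SiCIRBP libraries. The groups did not overlap, and the values varied less within a group than between the groups. TNNT1 belongs to the bin of shortest transcripts described above, whose median was also higher in each SiCIRBP library. The part of this in the values of TNNT1 was not tested. On the log2 scale the change was 0.79 ± 0.25 (adjusted p = 0.066) over 4 libraries and 0.77 ± 0.22 (adjusted p = 0.12) over 6, and DESeq2 called it over 6 (adjusted p = 0.045). TNNI3, cardiac troponin I, on chromosome 19 (55151767 to 55157773, minus strand), had 5, 7 and 1 counts in the NC libraries and 16, 11 and 30 counts in the SiCIRBP libraries. The NC libraries were all below the count minimum. Its log2 fold change was 2.44 ± 0.79 (adjusted p = 0.072), and it shares 21.9% of its 31-base words with AC010327.1 on the same strand.

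Of the 9 tested smooth muscle and nonmuscle contractile genes, 4 fell over the 4 libraries and 0 rose, beside 9.82% of all tested genes called lower and 9.49% called higher. MYL9, the regulatory light chain of smooth muscle and nonmuscle myosin, lies on chromosome 20 (36541484 to 36551447, plus strand). It measured 236, 248 and 233 CPM in the NC libraries and 111, 265 and 155 CPM in the SiCIRBP libraries. SiCIRBP_1 and SiCIRBP_3 were the lowest and SiCIRBP_2 the highest library. The log2 fold change was -0.85 ± 0.15 (adjusted p = 0.016) over 4 libraries and -0.43 ± 0.28 (adjusted p = 0.37) over 6. As a share of the TPM of MYL6 and MYL9 together, MYL9 was 6.58%, 7.12% and 7.84% in the NC libraries. In the SiCIRBP libraries it was 3.55%, 4.71% and 5.06%, with no overlap, although the level of MYL9 was highest in SiCIRBP_2. This share also depends on MYL6, and how often such shares separate was not computed. MYL6 was 1424 CPM in SiCIRBP_2 and 771 to 882 CPM elsewhere.

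TAGLN, the actin-binding smooth muscle protein transgelin, on chromosome 11 (117199321 to 117204782, plus strand), measured 190.4, 214 and 199.5 CPM in the NC libraries and 92.0, 862 and 150.4 CPM in the SiCIRBP libraries. SiCIRBP_2 was 4.29 times the NC mean, while the other SiCIRBP libraries were below every NC library. Its log2 fold change was -0.77 ± 0.21 (adjusted p = 0.046) over 4 libraries and turned to 0.87 ± 0.72 (adjusted p = 0.47) over 6. Within the 4 libraries it was -1.17 without SiCIRBP_3 and -0.46 without SiCIRBP_1. ACTA2, smooth muscle alpha actin, and CNN1, calponin, were also high in SiCIRBP_2, at 4.35 and 6.78 times the NC mean. ACTA2 was 0.96 CPM in both SiCIRBP_1 and SiCIRBP_3 and 1.32 to 1.64 CPM in the NC libraries, and CNN1 was between 0.45 and 2.17 CPM outside SiCIRBP_2. Both were low and not called. TAGLN shares 10.3% of its words with PCSK7, and ACTA2 shares 14.5% with ACTA2-AS1 and 11.8% with FAS, all on opposite strands. The level of ACTA2-AS1 was not read. PCSK7 was 39.0 CPM in SiCIRBP_2 and 49.3 to 56.7 CPM elsewhere, and FAS was 3.26 CPM in SiCIRBP_2 and 1.14 to 1.76 CPM elsewhere.

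MYH9, the main nonmuscle myosin heavy chain, on chromosome 22 (36281277 to 36388067, minus strand), measured 1915, 2433 and 2463 CPM in the NC libraries and 1885, 864 and 1656 CPM in the SiCIRBP libraries. The groups did not overlap, with NC_1 just above SiCIRBP_1 and SiCIRBP_2 far below the rest. The fitted log2 change was -0.47 ± 0.09 (adjusted p = 0.019) over 4 libraries and -0.63 ± 0.27 (adjusted p = 0.20) over 6. MYH10, another nonmuscle heavy chain, was 149 to 158 CPM in the NC libraries and 105 to 133 CPM in the SiCIRBP libraries with no overlap, but was not called (adjusted p = 0.086). Both heavy chains belong to the bin of longest transcripts, and MYL6 and TAGLN to the bin of shortest. MYH11, the smooth muscle heavy chain, did not exceed 0.51 TPM.

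CALD1, caldesmon, which binds actin and myosin, on chromosome 7 (134744252 to 134970728, plus strand), measured 258, 289 and 283 CPM in the NC libraries and 206, 258 and 207 CPM in the SiCIRBP libraries. SiCIRBP_2 nearly touched NC_1, and the groups did not overlap. The fold change on the log2 scale was -0.47 ± 0.07 (adjusted p = 0.012) over 4 libraries and -0.31 ± 0.13 (adjusted p = 0.20) over 6.

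**Figure D5:**
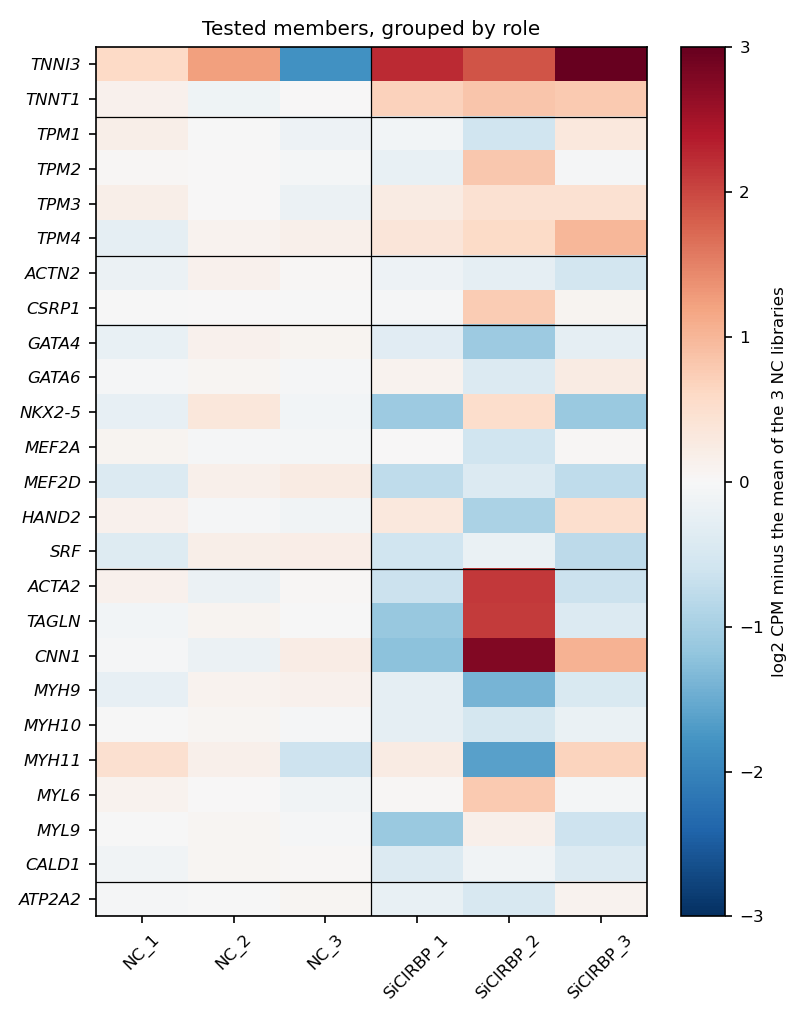
Log2 CPM of the 25 tested genes in each library minus the mean of the 3 NC libraries, grouped by role, red for higher and blue for lower. ACTA2, TAGLN and CNN1 are deep red in SiCIRBP_2, in contrast to SiCIRBP_1.

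The remaining tested genes were not called by edgeR. ACTN2, the alpha-actinin of the sarcomeric Z-disc, was 18.2 to 22.2 CPM in the NC libraries. It was 18.2, 16.9 and 14.0 CPM in SiCIRBP_1, SiCIRBP_2 and SiCIRBP_3, with a log2 fold change of -0.42 ± 0.15 over 4 libraries (adjusted p = 0.098). On log2(TPM + 1), limma called ACTN2 lower over the same libraries, with a change of -0.68 ± 0.13 (adjusted p = 0.040). CSRP1, a LIM protein of the actin cytoskeleton, was 113 to 114 CPM in the NC libraries, 111 and 120.2 CPM in SiCIRBP_1 and SiCIRBP_3, and 193 CPM in SiCIRBP_2. ATP2A2, the SERCA2 calcium pump, was the only tested calcium gene, at 368 to 392 CPM in the NC libraries and 326, 271 and 407 CPM in the SiCIRBP libraries.

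The length of transcript assigned to a gene can be read from its count divided by its TPM. Of 22 members with a ratio in every library, 4 had a larger ratio in each SiCIRBP than in each NC library (TPM4, ACTN2, TAGLN and ATP2A2) and 0 a smaller one. That is a share of 18.2%, near the 20.1% of 11813 genes in either direction (1058 larger and 1316 smaller). For TPM4, TAGLN and ATP2A2 the ratios in the SiCIRBP libraries were at most 1.06 times the NC mean. ACTN2 had ratios of 1.30, 1.34 and 1.04 times the NC mean in SiCIRBP_1, SiCIRBP_2 and SiCIRBP_3, and of 0.98, 1.02 and 1.00 times in the NC libraries, that is, a longer assigned transcript in SiCIRBP_1 and SiCIRBP_2. No test was made of these ratios.

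Further genes of the same systems were read from lists. Of 42 other cardiac muscle genes, 17 were tested, 2 rose and 2 fell over 4 libraries, a share of 23.5% beside the 19.3% of all genes, with a median log2 fold change of -0.09. FHL2 and FHL1, LIM proteins, fell (-0.75 ± 0.08 and -0.51 ± 0.12), whereas MB, myoglobin, rose (1.61 ± 0.42). MB was 0.46, 0.39 and 0.39 CPM in the NC libraries and 1.44, 2.53 and 0.96 CPM in the SiCIRBP libraries. Over all 6 libraries edgeR called 0 of these 17, and DESeq2 called MB alone (2.00 ± 0.53, adjusted p = 0.0057), beside 10.1% of all tested genes. FHL2 was highest in SiCIRBP_2, at 185 CPM against 84.0 to 136 CPM in the NC libraries.

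Of 47 other actin and contractile genes, 45 were tested, 4 rose and 15 fell, a share of 42.2% beside 19.3% of all tested genes (9.49% higher and 9.82% lower), and their median log2 fold change was -0.15. TGFB1I1, a focal adhesion coactivator, was the gene with the smallest p, at 105, 161 and 189 CPM in the NC libraries and 52.2, 84.5 and 64.1 CPM in the SiCIRBP libraries (log2 fold change -1.59 ± 0.13, adjusted p = 0.003). VCL, vinculin of focal adhesions, fell by 0.66 ± 0.08 on the log2 scale, ACTG1, cytoplasmic gamma actin, fell by 0.69 ± 0.09, PDLIM7 fell by 0.83 ± 0.10 and MYO1E fell by 0.75 ± 0.10. TGFB1I1, VCL and ACTG1 did not overlap between the groups, whereas PDLIM7 and MYO1E were highest in SiCIRBP_2. Among the 4 that rose, TAGLN2 changed by 0.52 ± 0.08 and did not overlap either. Of the 45 genes, the groups did not overlap for 9 that were higher and 7 that were lower in SiCIRBP. Beside these stand 16.1% and 16.6% of all tested genes. Over all 6 libraries edgeR called 0 of these 45 and DESeq2 called 3 higher and 3 lower, beside 10.1% of all tested genes.

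Markers of other cell types were read in the same way. Of 11 tested fibroblast genes, COL1A1, type I collagen, rose and PDGFRA fell, and 9 were not called. That is a share of 18.2%, beside 19.3% of all tested genes. COL1A1 was 2932, 2395 and 2248 CPM in the NC libraries and 3226, 1628 and 5232 CPM in the SiCIRBP libraries. VWF, KRT8 and MYH3 were called, all higher, among 4 endothelial, 3 epithelial and 1 skeletal muscle markers tested, beside 9.49% of all tested genes. VWF did not exceed 0.55 CPM and MYH3 did not exceed 2.74 CPM. DESeq2 over the same 4 libraries called 1 fibroblast gene, as lower, and 0 endothelial genes, beside 20.3% of all tested genes. It called 1 epithelial and 1 skeletal muscle gene higher. Over all 6 libraries edgeR called 0 of these markers. DESeq2 over 6 called 1 fibroblast and 1 epithelial gene higher, beside 10.1%. The single tested blood cell marker was not called, nor were the 10 interferon-stimulated genes over the 4 libraries. In bulk libraries such as these, fewer cells of a type and less RNA per cell cannot be told apart.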

How the data were processed

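RNA-seq libraries of human immortalized ventricular cardiomyocytes were compared between NC (3 libraries) and SiCIRBP (3 libraries), as the sample titles group them. The authors deposited estimated counts per gene (reads assigned to a gene, not all whole) and TPM values (counts per length of transcript, set to a common sum in each library). The submitters' notes name fastp, HISAT, RSEM and hg38, with no versions. Columns with the authors' own fold changes and p-values were not used.

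After rounding, the estimated counts were fitted in R 4.3.3 by edgeR 4.0.16 (TMM, glmQLFit, glmQLFTest) on the 15296 genes with 10 or more counts in at least 3 of 6 libraries, with Benjamini-Hochberg adjustment over all of them. The fit of 4 libraries follows the paper, which left out NC_1 and SiCIRBP_2. CPM were scaled by TMM over all 6 libraries. Standard errors belong to the fitted log2 fold change. DESeq2 1.42.0 and limma 3.58.1 on log2(TPM + 1) were alternatives, and exact permutation used scipy 1.17.1 on log2(CPM + 1). The fits were tested on simulated data.

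Values are given for every member called over 4 libraries, for members with a log2 change of 0.5 or more in size whose call differed between fits, and for 13 defining markers, and otherwise as ranges. In the other lists, the called genes with the smallest p, up to 5 a list, are named, except for a gene that is not reported here. Sequence shared between genes is the share of a gene's 31-base words, over its GENCODE 29 transcripts, that the other gene also holds. The members and lists were chosen with earlier results of these data known, and the reading of levels by transcript length was added after seeing the data. Promoter sequences were taken from RefSeq (GRCh38.p14).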

Additional observations from a re-analysis of the deposited data

How the results depend on the processing

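Over 4 libraries, 2 members were called higher and 8 lower. Both counts were 0 with edgeR on all 6 libraries, on all 6 without NC replicate 1, and on all 6 with a replicate block, and were 0 and 5 on all 6 without SiCIRBP replicate 2. Leaving out each of the 4 libraries in turn gave 0 to 8 higher and 0 to 11 lower calls, with 0 of both without NC_2 or without NC_3 and 8 and 4 higher without SiCIRBP_1 and SiCIRBP_3, with the lone library of a group assumed to vary like the others. No filter on low counts gave 6 higher and 9 lower, limma on log2(TPM + 1) gave 0 and 8, DESeq2 on all 6 gave 2 and 1, and a 2-fold minimum gave 0 and 1. With 1 count in at least 3 libraries, 38 of the 50 genes would be tested. The 4 other cardiac muscle genes called and the 19 other actin and contractile genes called both became 0 over all 6 libraries. The log2 fold change of TAGLN turned to 0.87 over all 6 libraries, to 0.83 without NC replicate 1, to 0.14 with the replicate block and to 0.89 with DESeq2 on 6, each of which includes SiCIRBP_2. That of HAND2 was -0.028 with the replicate block, and the TAGLN length ratio was -0.0039 on the log2 scale when scaled by the members. Deviations from the group mean were hardly correlated between same-numbered libraries (-0.12, 0.01 and -0.03). Differently numbered libraries were not compared and SiCIRBP_2 stood apart, so this cannot decide whether the numbers pair the libraries. Of 120 values for 12 named genes under settings other than leaving out one of the 4 libraries, 68 kept direction and side of the threshold, 42 were no longer called, 5 were newly called and 5 turned direction. Apart from the libraries, the cause of these differences was not tested. Members under 10 counts in most libraries were not tested.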
